A study of Mus musculus with 24 samples.

Results

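Translation initiation and elongation factors are the proteins that bring the ribosome to a messenger RNA, place it at the start codon and move it along the coding sequence. The genes described here are the protein-coding mouse genes whose symbols begin with Eif or Eef and a digit, without the Eif2ak kinases, Eef2k and pseudogenes. The rule used names only and no measured value. It found 66 genes among the 22064 gene identifiers of the count table, of which 63 had values and 60 passed a filter on low counts and were tested. Eef1akmt3, Eif4e1b and the readthrough gene Eef1akmt4-ece2 had no values, and Eef1a2, Eef1aknmt and Eif4a3l1 did not pass the filter.

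The study profiled RNA of microglia, the resident macrophages of the brain, sorted by flow cytometry from wild-type mice. BCAS commonly stands for stenosis of the carotid artery on both sides, a surgical narrowing that lowers blood flow to the brain. There were 4 groups of 6 libraries: sham-operated mice given PBS (Sham), BCAS mice given PBS (BCAS), BCAS mice given ND-Exos (ND-Exos) and BCAS mice given WD-Exos (WD-Exos). ND-Exos and WD-Exos are exosome preparations, small vesicles released by cells, given through the tail vein at 100 µg every 3 days over 28 days. No sham-operated mice received exosomes, so both exosome groups share the operation with the BCAS group. The labels do not say that each library came from its own mouse, and the p-values therefore reflect only how far these libraries vary, which may be partly technical. Libraries were made with Smart-seq2, which amplifies full-length cDNA from small amounts of RNA.

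In initiation, eIF2 carries the initiator tRNA to the small ribosomal subunit, and eIF2B recharges eIF2 with GTP. The many-subunit eIF3 holds the small subunit together with the other factors, while eIF4F binds the cap of the mRNA through eIF4E, with eIF4G as its scaffold and eIF4A as its helicase. In elongation, eEF1A delivers aminoacyl-tRNA, the eEF1B complex recharges eEF1A, and eEF2 moves the ribosome by a codon. Many mRNAs of this machinery, above all those of ribosomal proteins, eEF1A and eEF2, begin with a cytosine followed by a run of pyrimidines. This 5′ terminal oligopyrimidine (TOP) motif makes their translation depend on the kinase mTOR.

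The start regions of 6 of these genes are shown, some with and some without a run of pyrimidines near the annotated start. They come from the RefSeq promoter table (build GRCm38.p6), on the strand of the transcript, with 25 bases before the annotated start and 25 from it. Capitals mark a C followed by at least 4 more C or T, with that C within 10 bases of the annotated start.
Eef1a1: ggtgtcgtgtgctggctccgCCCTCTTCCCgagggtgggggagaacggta
Eef1b2: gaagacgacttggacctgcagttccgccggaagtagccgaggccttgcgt
Eif3f: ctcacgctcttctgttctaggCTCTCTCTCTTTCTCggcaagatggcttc
Eif4a2: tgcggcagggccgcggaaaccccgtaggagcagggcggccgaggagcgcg
Eif2s3x: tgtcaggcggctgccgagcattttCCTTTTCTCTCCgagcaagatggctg
Eif2s3y: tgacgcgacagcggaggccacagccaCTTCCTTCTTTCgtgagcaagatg
The windows lie at chr9:78481700-78481749 for Eef1a1 (minus strand), chr1:63176806-63176855 for Eef1b2 (plus), chr7:108934390-108934439 for Eif3f (plus), chr16:23107443-23107492 for Eif4a2 (plus), chrX:94212627-94212676 for Eif2s3x (minus) and chrY:1010570-1010619 for Eif2s3y (plus). Of the 50 factor genes with an entry in that table, 16 (32%) held such a run, against 34.9% of 17492 protein-coding genes. Among the 11 with an entry that are listed in the literature as TOP mRNAs, 5 (45.5%) held it, and among ribosomal protein genes 40 of 65 (61.5%). Of the windows read but not printed, Eif3l held such a run, and Eef2, Eif3c and Eif3m did not. Eef1b2, Eef2 and Eif3m are listed as TOP mRNAs but had no run in their windows. A match describes the letters near an annotated start, and its absence says only that these letters are not in this window. Whether a marked run begins the mRNA was not tested.

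Library totals ran from 24277722 to 28892423 counts, with 8515 to 10794 genes having a count. Levels are given in CPM, counts scaled to a common library size with TMM factors, and mean ± SD values are over 6 libraries. All 10 microglia markers, among them P2ry12 and Tmem119, had counts in every library, with summed levels of 39308.4 to 70385.5 CPM. Those markers of T and NK cells (1 of 4) and of neutrophils (2 of 5) that had values summed to less than 1 CPM in every library. Sums reached 483.0 CPM for astrocyte markers, 236.4 for neuron markers, 54.6 for B cell markers and 31.9 for monocyte markers. Correlations between libraries ran from 0.648 to 0.79, and the biological coefficient of variation common to all genes was 1.45, against a median of 0.477 for the tested factor genes. The 22 immediate early and heat shock genes of a list for recent cell activation, scored as the mean log2(CPM + 1), were highest in BCAS replicates 1 and 2 and WD-Exos replicates 1, 2 and 3, at 6.39 to 7.75, and at most 5.62 in the other libraries.

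Together the factor genes made up 1.82 ± 0.0973% of all counts in Sham, 1.53 ± 0.111% in BCAS, 1.56 ± 0.102% in ND-Exos and 1.53 ± 0.162% in WD-Exos. Eef1a1 alone gave about 1.01% in Sham. Per kilobase of transcript, a scale that allows genes to be set side by side, the mean level of Eef1a1 was 4758.9 CPM, that of Eif1 349.3, Eif5a 302.8, Eif4a1 266.6 and Eef2 249.9. Subunits of the same complex did not lie at the same level per kilobase. Within eIF3 the mean level ran from 0.196 CPM per kilobase for Eif3j2 and 7.52 for Eif3j1 to 184.0 for Eif3k. The spread between libraries of a group depended on the level: the median coefficient of variation was 27.6% for the 26 genes with a mean above 100 CPM, and 52.7% for the 31 between 10 and 100 CPM. Eef1a1 had the lowest, at 10.3%.

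**Figure D1:**
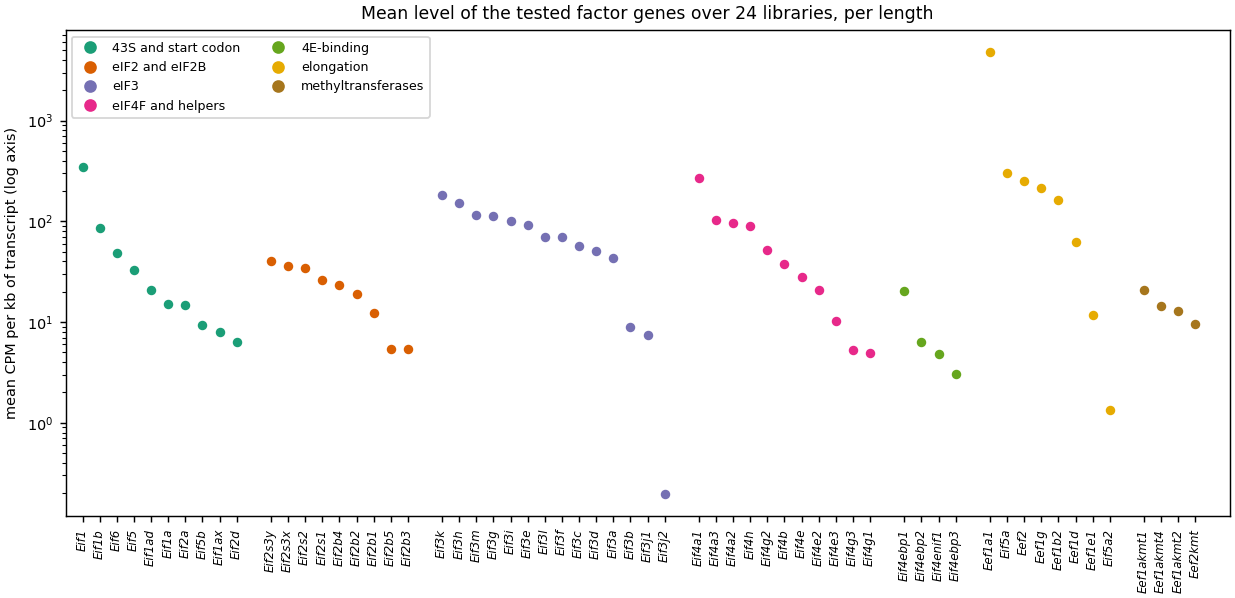
Mean level of each of the 60 tested factor genes over 24 libraries, in CPM per kilobase of transcript on a log axis, one point a gene, coloured and grouped by role. Eef1a1 (4758.9) stands above every other factor gene, and eIF3 subunits span from 0.196 to 184.0.

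The 6 pairwise comparisons asked whether the operation, and then either exosome preparation, went with different levels of these mRNAs. No factor gene passed the threshold in any of them (edgeR's quasi-likelihood test, Benjamini-Hochberg adjusted p under 0.05 over 10219 genes). The smallest adjusted p among members was 0.11, for Eef1a1 in ND-Exos against Sham. The share of all tested genes past the threshold was itself 0% for BCAS against Sham, 0.0196% for ND-Exos against BCAS, 0% for WD-Exos against BCAS, 0.0196% for WD-Exos against ND-Exos, 0.108% for ND-Exos against Sham and 0% for WD-Exos against Sham. In the test for any difference among the 4 groups it was 0.0294%, again with 0 factor genes, and 6 of 60 had an unadjusted p under 0.05, as did 6.33% of all genes. Of the 1423 tested genes with a mean above 100 CPM, 291 had this, and of the 26 such factor genes 6. At an unadjusted p under 0.05, 7 of 60 factor genes were lower and 2 higher in BCAS than in Sham, where 3.37% and 2.67% of all tested genes were. The corresponding counts were 2 and 2 for ND-Exos against BCAS (2.09% and 2.38% of all genes), and 1 and 0 for WD-Exos against BCAS (1.55% and 2.16%). They were 3 and 2 for WD-Exos against ND-Exos (2.43% and 2.91%), 4 and 1 for ND-Exos against Sham (3.37% and 3.3%), and 4 and 1 for WD-Exos against Sham (2.9% and 2.5%). The median SE was 1.1 over all tested genes in BCAS against Sham, and 0.24 over the 1423 above 100 CPM. Of the 1423, 128 were lower and 109 higher at this cut, against 7 and 1 of the 26 factor genes above 100 CPM. Between operated groups, in the same order, the 1423 gave 79 and 27, 58 and 24, and 93 and 120. For ND-Exos and WD-Exos against Sham they gave 179 and 112, and 174 and 93. In that order the 26 gave 1 and 2, 1 and 0, 3 and 1, 4 and 1, and 4 and 0. DESeq2, run as an alternative, placed Eef1a1, Eef1b2 and Eif4a2 past the threshold in some comparisons, as given with each gene.

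In the 3 comparisons against Sham and in the 4-group test the lowest p-value of a factor gene was that of the elongation factor Eef1a1, and in the 3 comparisons between operated groups no elongation factor had an unadjusted p under 0.05. Eef1a1 (Entrez 13627), which encodes the main eEF1A, lay at 9048.9, 10073.7 and 11485.9 CPM (lowest, median, highest) in Sham. The corresponding levels were 7785.3, 8169.5 and 8524.9 CPM in BCAS, 6303.7, 8079.0 and 8953.7 in ND-Exos, and 6801.1, 7972.1 and 9646.9 in WD-Exos. Every BCAS and every ND-Exos library lay below every Sham library, while WD-Exos overlapped Sham. Of the 1423 tested genes above 100 CPM, 16 had every BCAS library below Sham and 8 had every one above. Eef1a1 was the only factor gene without overlap between BCAS and Sham, where 0.245% of all tested genes had every BCAS library lower, and none had every BCAS library higher (0.127% of all tested genes). Its log2 fold change was -0.32 (SE 0.099, adjusted p = 0.376, edgeR) in BCAS, -0.40 (SE 0.099, adjusted p = 0.11) in ND-Exos and -0.35 (SE 0.099, adjusted p = 0.222) in WD-Exos against Sham. These 3 comparisons share the Sham libraries. With DESeq2 the adjusted p was 0.00468 for ND-Exos and 0.0418 for WD-Exos against Sham, and 0.0583 for BCAS. Among the operated groups the log2 fold changes of Eef1a1 were between -0.079 and 0.049.

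Eef1b2 (Entrez 55949), a subunit of the exchange factor that recharges eEF1A, had a mean of 419.6 ± 65.2 CPM in Sham, 300.0 ± 83.3 in BCAS, 248.2 ± 50 in ND-Exos and 281.3 ± 80.2 in WD-Exos. Its lowest, median and highest levels were 317.2, 430.1 and 488.9 CPM in Sham and 162.3, 252.6 and 318.8 in ND-Exos, so these groups overlapped by a narrow margin. BCAS replicate 2, at 466.7 CPM, was the one BCAS library within the Sham range. The log2 fold change against Sham was -0.48 (SE 0.19, adjusted p = 0.498, edgeR) in BCAS, -0.76 (SE 0.19, adjusted p = 0.122) in ND-Exos and -0.58 (SE 0.19, adjusted p = 0.4) in WD-Exos. For ND-Exos against Sham it passed the threshold with DESeq2 (adjusted p = 0.0115). With edgeR it also passed without the 5 libraries of highest immediate early score (-0.76, adjusted p = 0.0451), a setting chosen after the data were seen.

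Eef1g, another subunit of that exchange complex, lay at 326.6, 477.7 and 607.7 CPM in Sham and 285.3, 350.4 and 405.4 in BCAS, with overlap (log2 fold change -0.47, SE 0.16, adjusted p = 0.407, edgeR). Its means were 395.3 ± 82.0 CPM in ND-Exos and 371.7 ± 57.0 in WD-Exos. Eef2, the translocation factor, had a mean of 905.0 ± 209.5 CPM in Sham and 753.7 ± 292.2 in BCAS, and its BCAS libraries ran from 301.0 to 1129.2. Eif5a, which helps ribosomes past difficult peptide bonds, had means from 381.0 ± 95.7 CPM in ND-Exos to 477.5 ± 82.4 in Sham. Eef1e1, a scaffold protein of the aminoacyl-tRNA synthetase complex, ran the other way in BCAS, at 40.7 ± 17.9 against 23.8 ± 9.53 CPM in Sham (adjusted p = 1.0, edgeR). Of the 8 tested elongation factors 6 were lower in BCAS than in Sham, 7 in ND-Exos and 6 in WD-Exos, with median log2 fold changes of -0.27, -0.30 and -0.24, where all tested genes had medians of -0.003, 0 and 0.006. Eef1a2, the form of eEF1A known from neurons and muscle, was without a count in 17 of 24 libraries.

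**Figure D2:**
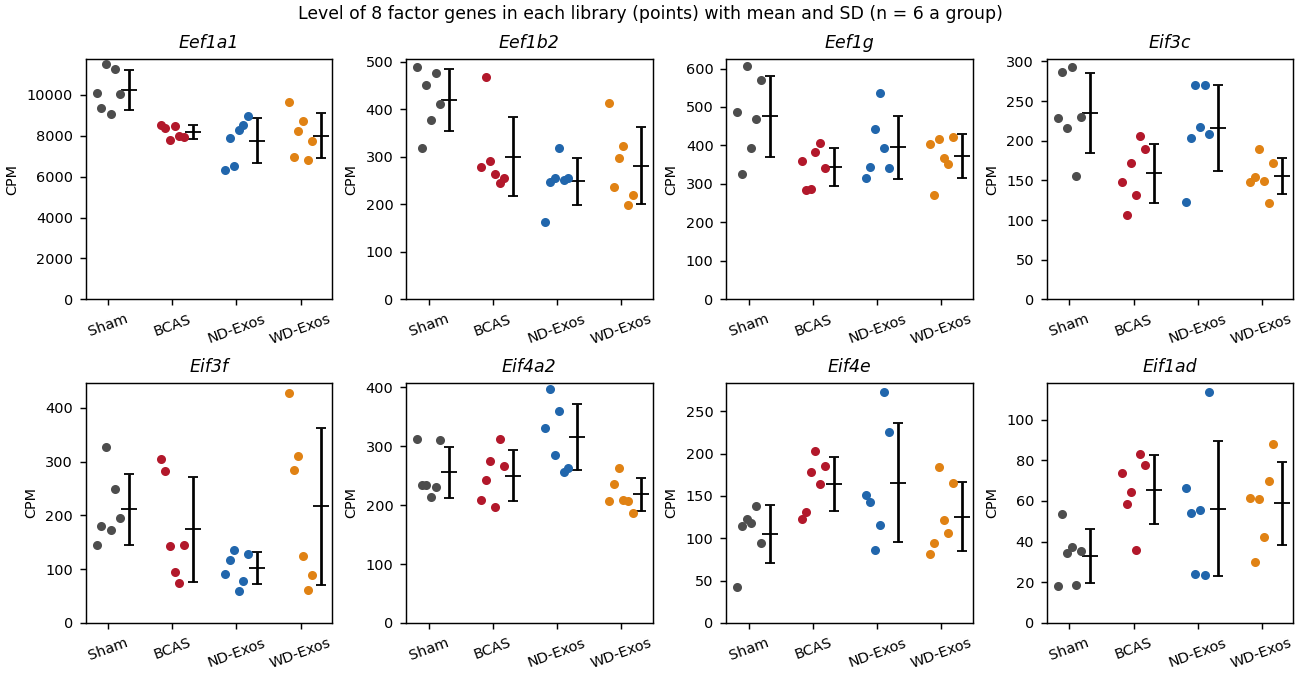
Level in CPM of 8 factor genes in each library (points, 6 a group), with the group mean and SD as black bars. All BCAS and ND-Exos points of Eef1a1 lie under the lowest Sham point (9048.9 CPM), and Eif3f splits within BCAS and WD-Exos into high and low libraries.

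Of the 14 eIF3 subunits 9 were lower in BCAS than in Sham, 12 in ND-Exos and 12 in WD-Exos, and the median log2 fold changes were -0.072, -0.28 and -0.29. Their summed level was 2001.6 ± 122.7 CPM in Sham, 1736.5 ± 247.2 in BCAS, 1678.5 ± 154.8 in ND-Exos and 1696.8 ± 179.4 in WD-Exos. Eif3c (Entrez 56347), a core subunit, lay at 155.8, 229.7 and 293.5 CPM in Sham, 105.7, 160.2 and 206.1 in BCAS, 123.3, 212.8 and 270.4 in ND-Exos, and 121.2, 152.1 and 189.1 in WD-Exos. The BCAS and WD-Exos libraries were low and the Sham and ND-Exos libraries mostly high, with overlap between all 4. Its log2 fold change against Sham was -0.57 (SE 0.20, adjusted p = 0.41, edgeR) in BCAS and -0.60 (SE 0.20, adjusted p = 0.401) in WD-Exos, and -0.13 (SE 0.20) in ND-Exos. Between WD-Exos and ND-Exos it was -0.47 (SE 0.20, adjusted p = 0.78).

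Eif3f (Entrez 66085) had the widest contrast among the eIF3 subunits above 100 CPM. In ND-Exos it lay at 59.6, 104.5 and 135.3 CPM, below every Sham library (144.9, 188.4 and 327.3). It was, with Eef1a1, the only factor gene with every ND-Exos library below Sham, where 0.851% of all tested genes had this, and none lay wholly above (0.294%). Of the 1423 tested genes above 100 CPM, 64 lay wholly below and 12 wholly above. Of the 83 tested ribosomal protein genes 48 lay wholly below and 0 above. In the other comparisons 0 factor genes were without overlap. The background shares, lower and higher, were 0.0881% and 0.0979% for ND-Exos against BCAS, 0.0685% and 0.117% for WD-Exos against BCAS, 0.225% and 0.294% for WD-Exos against ND-Exos, and 0.744% and 0.294% for WD-Exos against Sham. The log2 fold change was -1.06 (SE 0.39, adjusted p = 0.397, edgeR), and 1.09 (SE 0.39, adjusted p = 0.562) for WD-Exos against ND-Exos. Within BCAS, replicates 1 and 2 had 304.8 and 282.7 CPM and the other libraries 73.4 to 144.7. Within WD-Exos, replicates 1, 2 and 3 had 428.6, 285.0 and 310.2 CPM and the other libraries 61.6 to 125.0. These 5 high libraries were the 5 with the highest immediate early score. Without them the log2 fold change for WD-Exos against ND-Exos was -0.12 (SE 0.32), in place of 1.09. This leaves only replicates 4, 5 and 6 of WD-Exos. Since the WD-Exos libraries left out are the high ones in Eif3f, the value had to fall and is no separate result.

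Eif3l lay at 59.6, 104.1 and 154.3 CPM in WD-Exos and 93.5, 157.8 and 214.1 in ND-Exos, with overlap (log2 fold change -0.60, SE 0.25, adjusted p = 0.772, edgeR). Without the 5 libraries of highest immediate early score the value was -0.20 (SE 0.28). Eif3k had means of 136.7 ± 47.8 CPM in WD-Exos and 184.7 ± 34.2 in BCAS, and Eif3d 72.7 ± 19.6 in ND-Exos and 116.9 ± 44.3 in BCAS. Eif3i was at 83.1 ± 52.3 CPM in BCAS and 138.8 ± 31.2 in Sham. Eif3h had 239.1 ± 55.5 CPM in Sham, and 177.0 ± 55.1 in BCAS. Eif3a, the subunit with the highest mean over the 24 libraries (223.1 CPM), was at 231.3 ± 64.4 in Sham, 219.4 ± 53.8 in BCAS, 228.8 ± 38.7 in ND-Exos and 212.7 ± 72.3 in WD-Exos. Counts of Eif3j1 (40.7 CPM on average) and Eif3j2 (0.467) are uncertain, since their transcripts are 99.4% identical over 2379 bases and their deposited counts hold fractions.

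Among the eIF4F genes, Eif4a2 (Entrez 13682), a form of the helicase, was higher in ND-Exos than in WD-Exos libraries with little overlap. Its levels were 256.7, 308.6 and 397.6 CPM in ND-Exos, 186.2, 208.0 and 264.0 in WD-Exos, 213.7, 234.2 and 312.4 in Sham, and 196.4, 254.4 and 312.8 in BCAS. The log2 fold change of WD-Exos against ND-Exos was -0.53 (SE 0.16, adjusted p = 0.413, edgeR), and it passed the threshold with DESeq2 (-0.52, adjusted p = 0.0492). Its paralogue Eif4a1 was at 464.3 ± 126.0 CPM in ND-Exos and 485.7 ± 100.6 in WD-Exos. The median ratio of Eif4a2 to Eif4a1 in a library was 0.739 in ND-Exos, 0.474 in WD-Exos, 0.557 in BCAS and 0.53 in Sham, with ranges that overlapped.

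Eif4e (Entrez 13684), the cap-binding protein, lay at 42.1, 116.4 and 138.7 CPM in Sham, 123.0, 171.1 and 203.0 in BCAS, 86.5, 147.1 and 272.4 in ND-Exos, and 80.9, 114.4 and 184.4 in WD-Exos. Most BCAS libraries were above the Sham libraries (log2 fold change 0.64, SE 0.28, adjusted p = 0.649, edgeR). Its value in ND-Exos against Sham was 0.66 (SE 0.28, adjusted p = 0.591), and in WD-Exos 0.25 (SE 0.28), which became 0.091 without Sham replicate 1, 0.11 without WD-Exos replicate 3 and 0.16 without WD-Exos replicate 6. The scaffold Eif4g1 was low and uneven, at 18 ± 11.3 CPM in Sham and 39.5 ± 32.9 in WD-Exos. Its log2 fold change there was 1.13 (SE 0.72) and became 0.63 without WD-Exos replicate 2 and -0.004 without the 5 libraries of highest immediate early score. Its relative Eif4g2, which lacks the eIF4E-binding part, was at 369.1 ± 67.3 to 450.7 ± 84.6 CPM over the groups. Of the 11 tested genes of this role, 6 were lower in BCAS than in Sham, with a median of -0.032.

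The eIF4E-binding proteins keep eIF4E from eIF4G when mTOR is inactive. Eif4ebp1 lay at 26.6, 64.4 and 70.7 CPM in Sham, 16.1, 38.4 and 55.3 in BCAS, 12.6, 33.4 and 54.0 in ND-Exos, and 13.6, 36.9 and 57.8 in WD-Exos. The operated groups spanned similar ranges, all overlapping with Sham (log2 fold change of BCAS against Sham -0.63, SE 0.43, adjusted p = 1.0, edgeR). Eif4ebp2 had means of 27.2 ± 18.3 CPM in BCAS and 42.7 ± 20.7 in ND-Exos. Eif4ebp3 averaged 2.28 CPM and was without a count in 5 libraries.

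Genes of eIF2 and eIF2B varied widely between libraries of a group. Eif2s3x, the X-linked gene of the gamma subunit of eIF2, lay at 59.8, 156.2 and 324.1 CPM in BCAS and 25.4, 84.1 and 150.2 in ND-Exos (log2 fold change -1.02, SE 0.37, adjusted p = 0.609, edgeR). In BCAS, replicates 4, 5 and 6 had 203.6 to 324.1 CPM and the other libraries 59.8 to 108.9. Its Y-linked copy Eif2s3y had counts in all 24 libraries, with means of 78.2 ± 53.5 CPM in Sham, 52.6 ± 22.5 in BCAS, 93.2 ± 53.6 in ND-Exos and 71.7 ± 17.9 in WD-Exos. The transcripts of the pair are 86.4% identical over 1426 bases. The deposited counts of both were whole, and whether reads were assigned to the right copy could not be checked here. The share of Eif2s3x in the sum of both ran from 22.2% to 94.1% over the ND-Exos libraries. Eif2b4, a subunit of eIF2B, had 99.7 CPM in ND-Exos replicate 1 and 3.97 to 20.3 in the other ND-Exos libraries, against 30.7, 68.8 and 89.8 in WD-Exos. Its log2 fold change for WD-Exos against ND-Exos was 1.26 (SE 0.59, adjusted p = 0.888, edgeR), and 2.36 without that library. Eif2s1, the alpha subunit that stress kinases phosphorylate, was at 90.9 ± 25.3 CPM in Sham, 73.0 ± 39.8 in BCAS, 108.1 ± 47.5 in ND-Exos and 85.5 ± 32.4 in WD-Exos.

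Factors of 43S assembly (the small ribosomal subunit with its initiation factors) and of start codon selection were taken as 1 list, which also held Eif5b and Eif6. This list showed no shared direction: 5 of 10 were lower in BCAS than in Sham, 3 in ND-Exos and 4 in WD-Exos. Eif1ad, which encodes a protein related to eIF1A, lay at 18, 34.8 and 53.6 CPM in Sham and 35.9, 68.9 and 82.9 in BCAS. All but one BCAS library were above the highest Sham library (log2 fold change 1.0, SE 0.39, adjusted p = 0.475, edgeR). Its means were 56.1 ± 33.1 CPM in ND-Exos and 58.8 ± 20.4 in WD-Exos. Eif1, the gatekeeper of start codon choice, was at 493.4 ± 55.9 CPM in Sham, 491.8 ± 120.9 in BCAS, 450.2 ± 38.9 in ND-Exos and 411.8 ± 54.7 in WD-Exos. The methyltransferases that modify elongation factors were low, with means of 14.1 to 21.4 CPM for the 4 tested. Eef1akmt1 was at 27.7 ± 7.52 CPM in ND-Exos and 15.8 ± 10.3 in Sham (adjusted p = 1.0, edgeR).

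**Figure D3:**
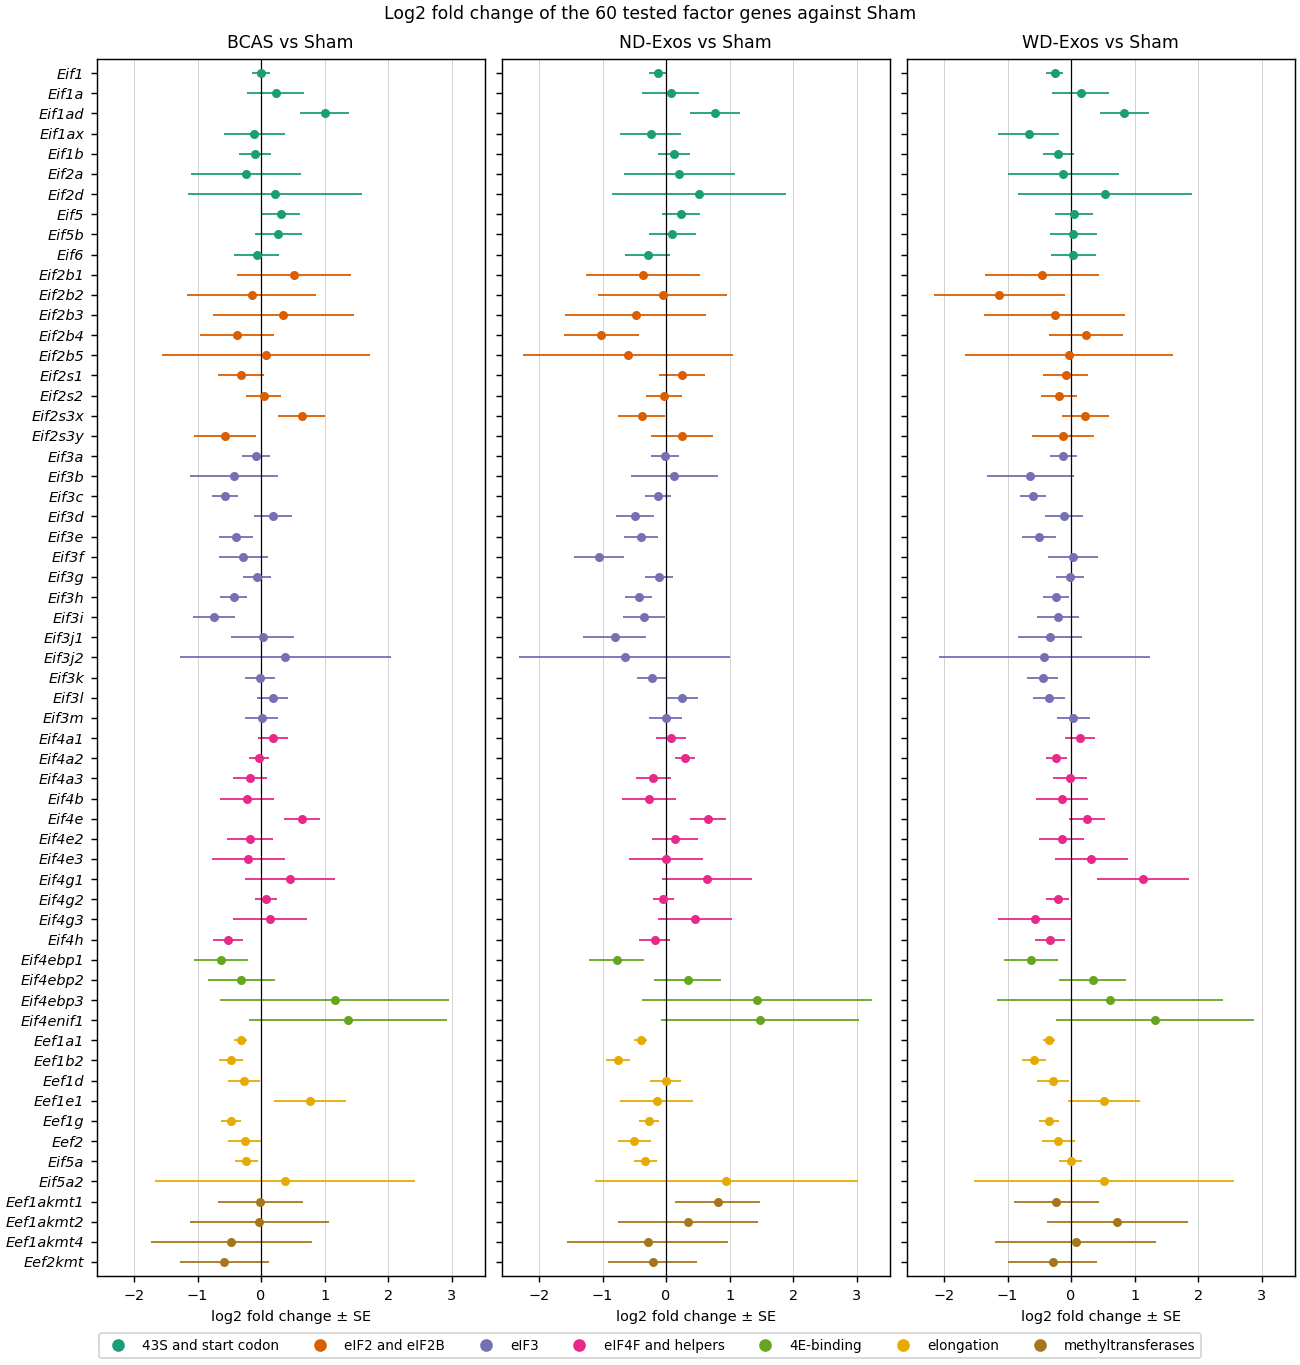
Log2 fold change against Sham, with its standard error, of the 60 tested factor genes in BCAS, ND-Exos and WD-Exos, grouped and coloured by role. The elongation factors Eef1a1, Eef1b2 and Eef1g lie left of 0 in all 3 panels, which share the Sham libraries, and genes of low level have wide errors.

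Taken over all 60 tested, the factor genes lay close to the other genes, but those above 100 CPM were more often lower than in Sham. In BCAS against Sham 36 of 60 had a lower level and the median log2 fold change was -0.069, where 50.1% of all tested genes were lower and the median was -0.003. The counts were 36 with a median of -0.080 in ND-Exos and 39 with -0.13 in WD-Exos against Sham (50% and 49.5% of all tested genes). Among the operated groups 32 were lower in ND-Exos than in BCAS (49.6% of all tested genes), 35 in WD-Exos than in BCAS (51.1%) and 31 in WD-Exos than in ND-Exos (50.8%), with medians between -0.045 and -0.013. The 26 factor genes above 100 CPM had medians of -0.20, -0.19 and -0.21 in BCAS, ND-Exos and WD-Exos against Sham, where the 1423 tested genes above that level had 0.017, -0.050 and -0.025. Of the 26, 73.1%, 80.8% and 76.9% were lower than in Sham, and of the 1423, 48.1%, 55.4% and 53.4%. Of the 14 tested factor genes listed as TOP mRNAs, 11, 13 and 11 were lower than in Sham, with medians of -0.27, -0.33 and -0.26. The other 46 had medians of -0.018, -0.013 and -0.10. The listed genes all had a mean above 100 CPM and most of the others did not, so this contrast also holds a difference in level. Within eIF3 the 7 subunits listed as TOP mRNAs had medians of -0.076, -0.22 and -0.24. The other 7 subunits had -0.068, -0.35 and -0.33. No test of these lists was made, since their members were chosen with results of these data known.

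Ribosomal protein genes, whose mRNAs carry the TOP motif, were lower than in Sham in 83 of 83 tested cases in BCAS, 82 in ND-Exos and 82 in WD-Exos, with medians of -0.47, -0.58 and -0.57. Their share of all counts was 5.98 ± 0.526% in Sham, 4.34 ± 0.782% in BCAS, 4.43 ± 0.475% in ND-Exos and 4.11 ± 0.635% in WD-Exos. With edgeR, 5 of the 83 passed the threshold in ND-Exos against Sham, and 0 in BCAS and 0 in WD-Exos against Sham. Rplp1, which had the smallest p among them in ND-Exos, was at 1544.6 ± 158.2 CPM in Sham and 876.5 ± 92.4 in ND-Exos (log2 fold change -0.82, adjusted p = 0.0241, edgeR). Its adjusted p against Sham was 0.166 in BCAS and 0.0624 in WD-Exos (edgeR). Of 50 tested regulators of translation outside the family, 20 were lower in BCAS than in Sham, with a median of 0.11, and none passed the threshold with edgeR in any pairwise comparison. Ppp1r15a, which restores eIF2 after stress, was at 26.6 ± 22.7 CPM in Sham and 307.1 ± 225.1 in WD-Exos (log2 fold change 3.53, adjusted p = 0.522, edgeR). Pdcd4, an inhibitor of eIF4A, was at 32 ± 16.1 CPM in Sham and 70.4 ± 14.2 in ND-Exos (1.14, adjusted p = 0.335, edgeR).

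**Figure D4:**
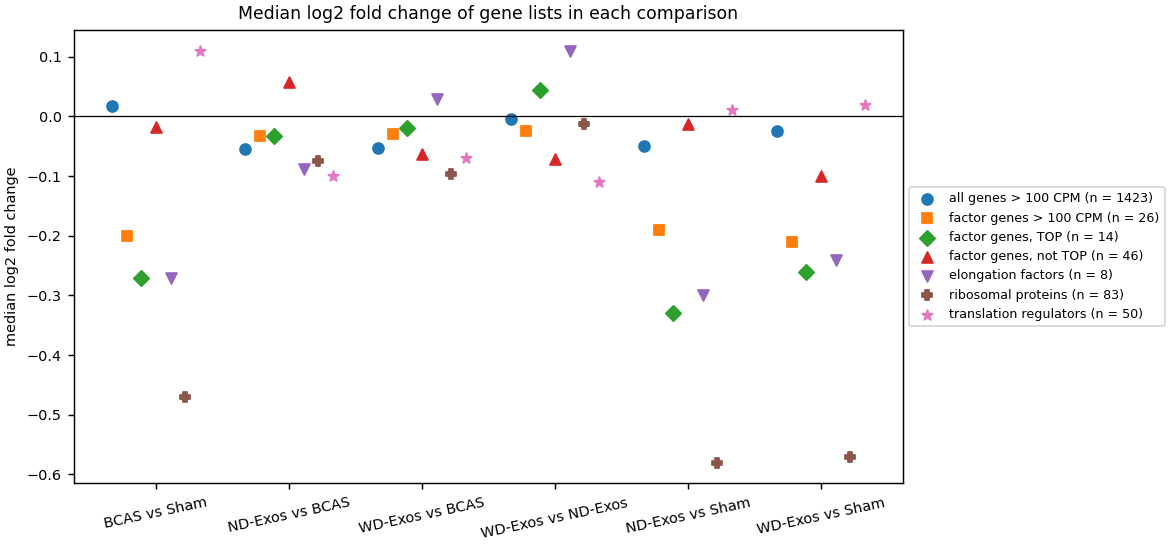
Median log2 fold change of 7 gene lists in each of the 6 pairwise comparisons, with the number of tested genes in the key. Against Sham the ribosomal protein genes lie at -0.47 to -0.58 and the factor genes above 100 CPM at -0.19 to -0.21, while between operated groups both lists lie between -0.097 and -0.012.

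Across the 24 libraries the level of Eef1a1 went with the ribosomal protein share (Pearson r = 0.73, permutation p = 6e-05, adjusted 0.00042 over 7 relations; Spearman rho = 0.70, permutation p = 0.00016). It was 0.66 without Sham replicates 1 and 3, which lay farthest from the median share. Within groups of 6, r was 0.56 in Sham, 0.32 in BCAS, 0.17 in ND-Exos and 0.80 in WD-Exos, so the relation was uneven within groups. Sham had the highest mean of both measures, so r and p over the 24 libraries include that group difference. The permutations shuffled libraries across groups and cannot separate it from a relation between single libraries. Eif1 gave r = 0.57 (permutation p = 0.0031, adjusted 0.0109, and Spearman rho = 0.53, permutation p = 0.00793) and 0.53 without Sham replicates 1 and 3. Within groups its r was 0.63 in Sham, 0.74 in BCAS, 0.07 in ND-Exos and 0.61 in WD-Exos. Eif4a1 gave r = 0.04 (permutation p = 0.857). For the remaining relations r was -0.15 (Eif2s3x), 0.01 (Eif3a), 0.40 (Eif4ebp1) and 0.34 (Eef1akmt4), with adjusted permutation p of 0.116 or more. Both measures in each relation come from the same libraries and share their depth.

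**Figure D5:**
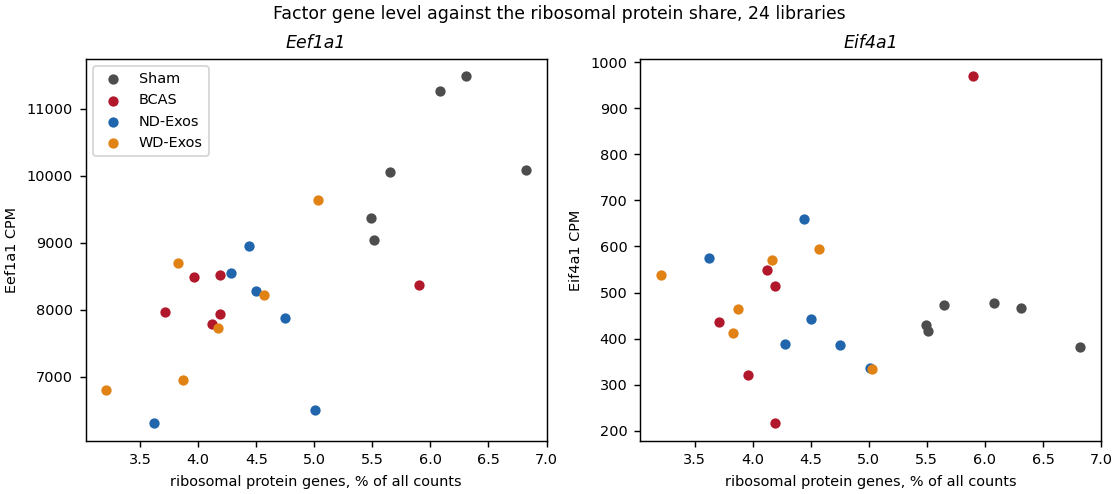
Level in CPM of Eef1a1 (left) and Eif4a1 (right) against the percent of all counts from ribosomal protein genes, one point a library, coloured by group. Eef1a1 rises with the share over the 24 libraries (r = 0.73, with group differences included) and Eif4a1 does not (r = 0.04).

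Markers of other cells moved with some libraries. Mural cell markers summed to 0 to 980.8 CPM in Sham and to at most 19.9 in the operated groups, and endothelial markers to 2.62 to 473.4 in Sham and at most 78.6 in the others. The Sham medians were 10.3 and 29.3. The high mural sums were in Sham replicates 2 and 4 (980.8 and 149.4), the high endothelial ones in replicates 3 and 5 (473.4 and 268.6). Astrocyte markers had means of 152.5 CPM in Sham, 173.7 in BCAS, 264.0 in ND-Exos and 209.8 in WD-Exos. Slc1a3 was the largest part of the astrocyte sum, at 90.6, 151.4, 161.5 and 150.6 CPM. Aldoc reached 219.0 CPM in an ND-Exos library. Gfap and Gja1 had their highest means in Sham (9.17 and 7.28 CPM), and Aqp4 was at 0 in 21 of 24 libraries. Sums of B cell markers were 17.9, 35.8, 36.8 and 22.9 CPM. They came from Cd79b, since Cd79a had no values and Ms4a1 was at 0 in 22 of 24 libraries. Of the 6 mural genes listed 5 had values, and Pdgfrb was at 0 in 20 of 24 libraries. Border macrophage markers, all 7 with values, summed to 51.8 to 1289.1 CPM in Sham, 0.22 to 424.5 in BCAS, 51.2 to 585.6 in ND-Exos and 17.3 to 136.6 in WD-Exos. Oligodendrocyte markers reached 7499.1 CPM in Sham, 1232.0 in BCAS, 4123.3 in ND-Exos and 5139.2 in WD-Exos, with medians of 313.8, 278.4, 227.3 and 329.0, so their high libraries were not confined to Sham. The part of these cells in the lower elongation factor levels of the operated groups was not tested. In sorted bulk samples, fewer cells of a type and less RNA per cell cannot be told apart.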

How the data were processed

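Smart-seq2 RNA-seq of sorted microglia was deposited as 1 table of counts per gene and library. The values, as deposited by the authors, are estimated counts per gene from amplified Smart-seq2 cDNA (per the labels' protocols), not scaled between libraries. They are mostly whole with some fractions, and were rounded here. For the aligner, the counter and the genome build, the sources used here give no name. Entrez identifiers were matched to RefSeq symbols (22002 of 22064), and 6186 identifiers were blank in every library. All 24 columns were mapped by the library names in the labels.

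One edgeR 4.0.16 quasi-likelihood fit (robust, filterByExpr with a count minimum of 10, TMM factors 0.936 to 1.17) held all 24 libraries and 4 group means. P-values were Benjamini-Hochberg adjusted over 10219 genes, with a threshold of 0.05. Transcript lengths are those of the longest protein-coding GENCODE M21 transcript, and identities come from blastn 2.17.0. Alternatives were other size factors, other count filters, a replicate block, only the compared groups, DESeq2 1.42.0, limma 3.58.1 voom with library weights, and each library left out.

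Named genes were, per comparison, the 4 higher and 4 lower with the smallest p, the 6 with the smallest p over the 4 groups, the highest member of each role, fixed paralogue pairs and members without a test, with up to 5 genes of each neighbouring list. Eef2 was named after its values were seen. Members and lists were chosen with earlier results of these data known.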

Additional observations from a re-analysis of the deposited data

Results flagged for a closer look

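Of 120 groups of 6 values (30 named genes in 4 groups), 4 held a library that stood apart, where chance alone flags about 1 in 20 groups. Eef1b2 was at 466.7 CPM in BCAS replicate 2, with the nearest BCAS library at 291.0. In the same library Eif3k was at 249.8 CPM, with the nearest at 190.3. Eif2b4 was at 99.7 CPM in ND-Exos replicate 1, with the nearest at 20.3. Eif2s1 was at 141.5 CPM in Sham replicate 6, with the nearest at 85.8.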

How the results depend on the processing

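Counts of factor genes past the threshold were 0 in every pairwise comparison and in the 4-group test with edgeR under the other size factors and filters and on only the compared groups, with voom, with a replicate block and with each library left out (lowest 0, highest 0). With DESeq2 the counts were 1 for WD-Exos against ND-Exos (Eif4a2), 2 for ND-Exos against Sham and 2 over the 4 groups (Eef1a1 and Eef1b2), and 1 for WD-Exos against Sham (Eef1a1); the cause was not tested. Of all 10219 tested genes DESeq2 called 124 for WD-Exos against ND-Exos (edgeR 2), 219 for ND-Exos against Sham (edgeR 11), 172 for WD-Exos against Sham (edgeR 0) and 163 over the 4 groups (edgeR 3).

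3 checks were chosen after the data were seen. A first set of 3 libraries of high immediate early score (BCAS replicates 1 and 2, WD-Exos replicate 2) did not follow the order of the score, and leaving it out gave 0 factor genes in every comparison. The set was then extended, with that result known, to the 5 libraries of highest score. Without these 5, 1 factor gene passed in ND-Exos against Sham (Eef1b2, adjusted p = 0.0451), where 40 of all 10219 tested genes did and 11 with all libraries. Eif3f, whose high libraries were these same 5, turned to -0.12 in WD-Exos against ND-Exos. Eif4g1 turned to -0.004 in WD-Exos against Sham. The Eef1b2 call with edgeR therefore rests on which set is used. Exact two-sided permutation tests of the share of counts were run for the highest member of each role in the 6 comparisons, 42 tests in all. The exact p was 0.00216, the smallest that 6 against 6 allows, for Eef1a1 in BCAS and in ND-Exos against Sham, and 5 of the 42 were under 0.05. These p-values are unadjusted, the test was added after Eef1a1 had been seen to separate, and no call is taken from it.

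Same-numbered libraries did not deviate together (correlations -0.057 to 0.059), and with the replicate block the median log2 fold changes were -0.080, -0.031, -0.049, 0.049, -0.078 and -0.14, in the order BCAS against Sham, ND-Exos against BCAS, WD-Exos against BCAS, WD-Exos against ND-Exos, ND-Exos against Sham and WD-Exos against Sham. Over all alternatives the median between operated groups changed sign, from -0.052 to 0.072 for ND-Exos against BCAS, -0.10 to 0.007 for WD-Exos against BCAS and -0.098 to 0.051 for WD-Exos against ND-Exos, and against Sham it stayed below 0 but ranged from -0.15 to -0.026 (BCAS), -0.13 to -0.021 (ND-Exos) and -0.18 to -0.078 (WD-Exos). Leaving out Sham replicate 1 moved BCAS against Sham from -0.069 to -0.026, and leaving out ND-Exos replicate 5 moved ND-Exos against Sham from -0.080 to -0.022. Of 48 named fold changes, 20 moved by over 1.5 times under some alternative and 13 with 1 library left out. Median standard errors of 0.37 for factor genes limit what could be detected.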
